A study of Mus musculus with 10 samples.

Results

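The 10 genes described here encode proteins that keep chromatin silent: the HP1 proteins Cbx1, Cbx3 and Cbx5, the histone methyltransferases Suv39h1 and Ehmt2, the co-repressor Trim28, the Polycomb repressive complex 2 (PRC2) subunits Ezh2, Eed and Suz12, and the DNA methyltransferase Dnmt1. They were chosen by name, and all 10 were found as single-gene lines among 11290 basal and 11464 suprabasal loci that had passed the authors' status check. RNA was sequenced from primary keratinocytes isolated by cell sorting from the skin of FVB/N mice at postnatal day 4. The 4 groups were wild type basal cells (3 samples), bitransgenic HGPS basal cells (2 samples), wild type suprabasal cells (3 samples) and bitransgenic HGPS suprabasal cells (2 samples). HGPS is Hutchinson-Gilford progeria syndrome, in which progerin, a truncated lamin A, accumulates at the nuclear envelope. The labels do not name the transgenes, the promoter that drives them, or the sex of the animals. Dividing cells of the epidermis form its basal layer, on the basement membrane, and their daughters differentiate as they move up into the suprabasal layers.

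Heterochromatin is built around methylation of lysine 9 of histone H3 (H3K9). Suv39h1 and Ehmt2 write that mark, HP1 proteins bind it, and Trim28 brings such enzymes to DNA through zinc finger proteins. PRC2 methylates lysine 27 of the same histone (H3K27), with Ezh2 as the enzyme and Eed and Suz12 as the subunits it needs, and Polycomb repressive complex 1 (PRC1) reads that mark through its own Cbx proteins. Dnmt1 copies DNA methylation after replication. In mouse epidermis Ezh2 is known from basal progenitors, where it holds back differentiation genes, and Dnmt1 is known to keep progenitors dividing. Loss of heterochromatin marks and of HP1 is a known feature of cultured cells from patients with progeria.

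Each level is the authors' group value, taken to be FPKM (fragments per kilobase of transcript, scaled for library size), so levels can be set between genes per length. How the libraries were scaled is not given in the sources used here. No value per sample was analysed, and sequencing depth is unknown. The 2 layers come from separate tables, so a level set between layers crosses 2 normalizations and was not tested. Each fold change divides the bitransgenic by the wild type level, and each ± is a standard error (SE) implied by the authors' p-value. Genes were called where the authors' q was under 0.05. Mouse Lmna stood at 564 and 536 FPKM in the wild type and bitransgenic basal groups and 460.2 and 397 in suprabasal cells, and the files do not say whether transgene reads enter that line. All 7 basal keratinocyte markers, Itga6 and Col17a1 among them, had the higher level in basal cells of both genotypes. Of 8 suprabasal markers, Krt10 and Flg among them, 7 were higher in suprabasal cells in wild type and 5 in bitransgenic samples. Tgm3 was higher in basal cells in both genotypes, and Krt1 and Dsg1a in bitransgenic ones. Some of these marker lines are merged: Krt5 with Krt2, Krt6b, Krt72, Krt76 and Krt8, Krt14 with Krt16, and Dsg1a with Dsg1c. The Krt1 line has the same coordinates as the Krt5 line. Krt15, another basal keratin, was the 1 of 7 basal markers that was called, and it fell in both layers (1601.8 to 308 FPKM in basal and 1025 to 124 in suprabasal cells). The melanocyte markers (7 listed) summed to 2045 FPKM in wild type and 3788 in bitransgenic suprabasal cells, while in basal cells 3 of them were measured and summed to 8.38 and 12.9. Among the other cell types, 5 of 7 fibroblast markers were measured in suprabasal cells (334 and 521 FPKM in sum, mostly Vim) and 2 of 7 in basal cells (11.98 and 11.6), Cd74 was the 1 of 7 leukocyte markers measured in either layer, and none of 5 endothelial markers was listed in either. The part of these markers, Krt15 included, in the results was not tested.

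Trim28 was the most abundant of the 10 transcripts in all 4 groups, and Cbx3 the least. Trim28 stood at 189 FPKM in wild type basal cells, above 97.1% of loci there, and Cbx3 at 6.05 FPKM, above 25.5%. In wild type basal cells the order from high to low was Trim28, Cbx1, Cbx5, Dnmt1, Ezh2, Ehmt2, Suz12, Eed, Suv39h1 and Cbx3, a range of 31.3 times. Without values per sample, the data do not show which neighbours in that order differ beyond their spread. In bitransgenic basal cells Cbx5 stood above Cbx1, and Suz12 above Ezh2 and Ehmt2. In suprabasal cells the order began with Trim28 and Cbx1 in both genotypes and ended with Suv39h1 and Cbx3.

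**Figure D1:**
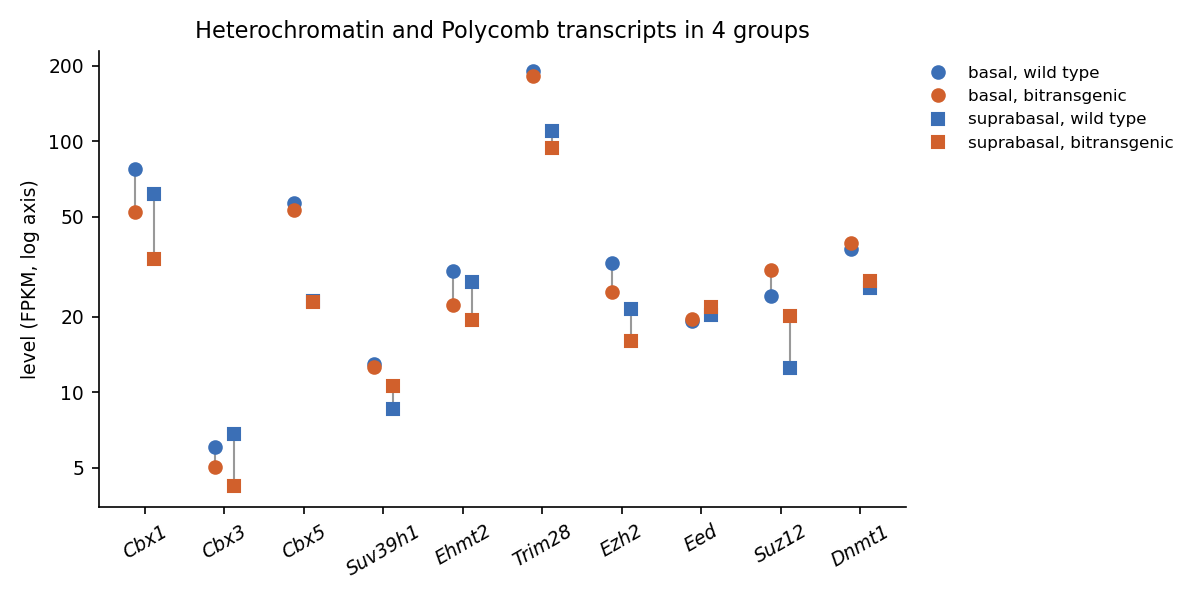
Level of each transcript in FPKM on a log axis, 1 point per group (the authors' group value, with no error of its own), circles for basal and squares for suprabasal cells, blue for wild type and orange for bitransgenic. Cbx1 goes from 77.6 to 52.0 FPKM in basal and from 61.5 to 33.9 in suprabasal cells, while the Cbx5 points of a layer nearly coincide.

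None of the 10 genes was called in either layer. In basal cells 0 of 10 passed the authors' q, where 1.65% of all loci did, and in suprabasal cells 0 of 10, where 0.471% did. At an unadjusted p under 0.05 there was 1 gene among the 20 tests, Cbx1 in suprabasal cells, where such p-values were found for 7.68% of basal and 7.11% of suprabasal loci. Readjusting the authors' p by the Benjamini-Hochberg method over the analysed loci also gave 0 of 10 in each layer. The members' median log2 fold change was -0.07 in basal cells, against -0.12 over all loci. In suprabasal cells it was -0.11, against -0.08. The fold changes of loci with at least 1 FPKM in both groups had a median of -0.11 in basal cells, and relative to it the members' basal median was 0.04. None of the basal members differed by 1.5 times or more, which 29.9% of all loci did, and 3 suprabasal members did (Cbx1, Cbx3 and Suz12), against 30.7% of all loci.

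**Figure D2:**
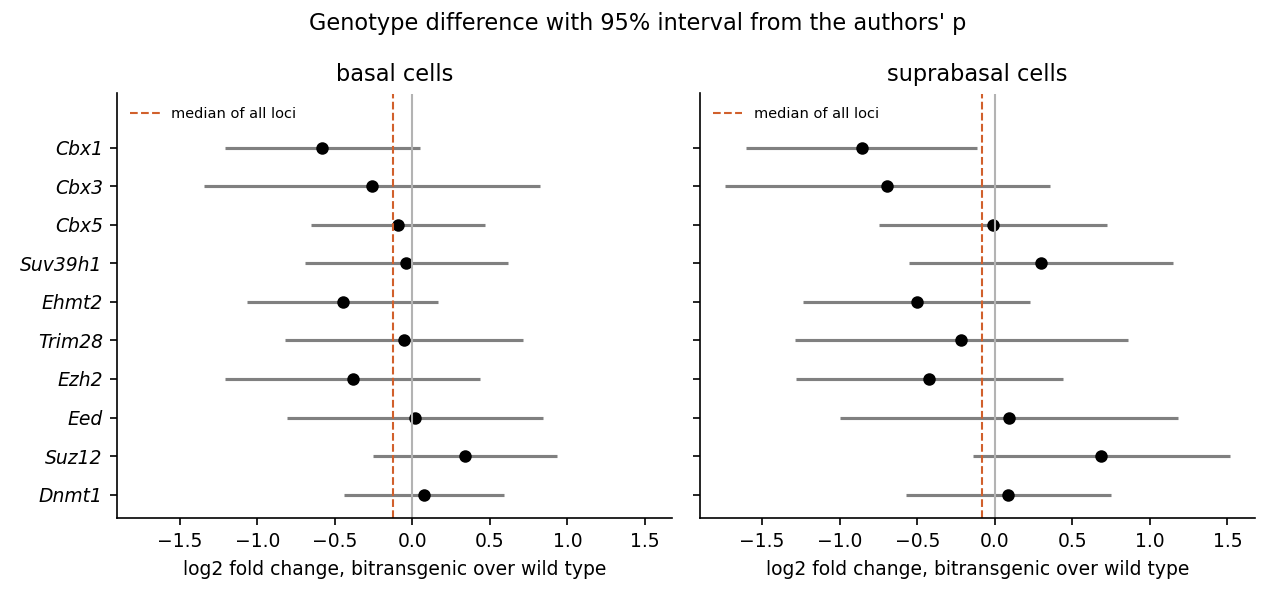
Log2 fold change of each gene, bitransgenic over wild type, in basal cells on the left and suprabasal cells on the right; points are the estimates, bars the 95% intervals implied by the authors' p, and the dashed line the median of all loci. Every interval includes 0 except that of Cbx1 in suprabasal cells, which runs from -1.60 to -0.11.

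Among the HP1 genes, Cbx1 (HP1 beta) had the largest difference between genotypes and Cbx5 (HP1 alpha) almost none. Cbx1, on chromosome 11 from 96789127 to 96808640 (mm10), had a basal level of 77.6 FPKM in wild type and 52.0 in bitransgenic samples (-0.58 ± 0.32), with a p of 0.07 and a q of 0.466 in the authors' deposited table. In suprabasal cells it had 61.5 and 33.9 FPKM (-0.86 ± 0.38), with a p of 0.0239 and a q of 0.342 in the authors' deposited table. So the bitransgenic level was 0.669 of the wild type level in one layer and 0.551 in the other, and neither difference was called. Cbx5, on chromosome 15 from 103191544 to 103239920, had 56.7 and 53.1 FPKM in basal cells (-0.09 ± 0.29). In suprabasal cells Cbx5 had 23.1 and 22.9 FPKM (-0.01 ± 0.37). The 95% interval of the Cbx5 ratio ran from 0.635 to 1.38 in basal and from 0.597 to 1.65 in suprabasal cells.

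Cbx3 (HP1 gamma), which is also found at active genes, lies on chromosome 6 from 51470040 to 51483704. It had 6.05 and 5.05 FPKM in basal cells (-0.26 ± 0.55) and 6.82 and 4.22 FPKM in suprabasal cells (-0.69 ± 0.53). The Cbx3 levels are uncertain, since 8 genes are named as its pseudogenes in the GENCODE M21 annotation. The treatment of reads that match several places is not given in the sources used here. The HP1 transcripts together came to 140.4 and 110.1 FPKM in basal cells. In suprabasal cells that sum was 91.4 and 61.0 FPKM. Cbx5 made up 40.4% (wild type) and 48.2% (bitransgenic) of the basal sum, and 25.2% and 37.5% of the suprabasal sum. These shares follow from the Cbx1 levels and carry no error of their own.

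Of the H3K9 methyltransferase transcripts, Ehmt2 stood above 77.1% of loci in wild type basal cells and Suv39h1 above 50.8%. Suv39h1, which writes trimethylation at pericentric heterochromatin, lies on the X chromosome from 8049172 to 8074760. It had 12.9 and 12.6 FPKM in basal cells (-0.04 ± 0.33), and 8.55 and 10.5 in suprabasal cells (0.30 ± 0.43). Neither passed the test. Xist, the RNA of the inactive X, had 0.258 and 108 FPKM in the basal and 0.236 and 103 in the suprabasal groups, so the sexes were mixed differently between genotypes. For every gene described here, and not only the X-linked Suv39h1, sex and genotype cannot be told apart. Its paralog Suv39h2 had 5.62 and 7.41 FPKM in basal cells and 3.76 and 2.54 in suprabasal cells, and was not called.

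Ehmt2 (G9a) writes H3K9 dimethylation in euchromatin together with Ehmt1, and lies on chromosome 17 from 34898469 to 34914052. It had 30.4 and 22.2 FPKM in basal cells (-0.45 ± 0.31, p 0.153 in the authors' deposited table) and 27.5 and 19.4 FPKM in suprabasal cells (-0.50 ± 0.37, p 0.176 in the same source). The bitransgenic level was 0.732 of wild type in basal and 0.705 in suprabasal cells, not past the test in either. Its partner Ehmt1 had 40.2 and 34.1 FPKM in basal cells and 38.8 and 28.7 in suprabasal cells. The Ehmt1 level over the Ehmt2 level lay between 1.32 and 1.53 in the 4 groups. Trim28 (KAP1), on chromosome 7 from 13024152 to 13031035, had 189 and 182 FPKM in basal cells (-0.05 ± 0.39) and 109 and 94.2 in suprabasal cells (-0.22 ± 0.55). Setdb1, the methyltransferase that Trim28 recruits, had 12.8 and 10.9 FPKM in basal cells and 12.1 and 11.9 in suprabasal cells, and none of these differences was called.

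The core subunits of PRC2 had estimates in different directions. Ezh2, on chromosome 6 from 47530274 to 47595341, had 32.7 and 25.03 FPKM in basal cells (-0.38 ± 0.42). In suprabasal cells Ezh2 had 21.5 and 16.0 FPKM (-0.42 ± 0.44). Suz12, on chromosome 11 from 79993098 to 80034123, had 24.2 and 30.7 FPKM in basal cells (0.34 ± 0.30), and 12.4 and 20.02 in suprabasal cells (0.69 ± 0.42, p 0.105 in the authors' deposited table). Eed, which binds the methylated histone tail, lies on chromosome 7 from 89954656 to 89982022. It had 19.3 and 19.5 FPKM in basal cells (0.02 ± 0.42) and 20.4 and 21.7 in suprabasal cells (0.09 ± 0.56). None of the 6 differences passed the test. Suz12 stood below Ezh2 in wild type, at 0.742 of its level in basal and 0.580 in suprabasal cells, and above it in bitransgenic cells, at 1.23 and 1.25. The difference between those ratios was not tested, since the tables give no covariance between genes. The loci of Suv39h1, Ezh2, Eed and Suz12 overlap annotated RNAs on the other strand, and those of Cbx1 and Ezh2 overlap processed pseudogenes there. On the same strand, the Eed locus overlaps the annotated gene Gm45120 and the Dnmt1 locus the microRNA gene Mir7081. The libraries were strand-specific per the labels, and whether counting used the strand is not given in the sources used here.

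Dnmt1, on chromosome 9 from 20907206 to 20959888, had the narrowest interval of the 10 genes in each layer. It had 37.3 and 39.3 FPKM in basal cells (0.07 ± 0.26) and 26.1 and 27.7 in suprabasal cells (0.09 ± 0.34). The 95% interval of its ratio ran from 0.736 to 1.51 in basal and from 0.672 to 1.68 in suprabasal cells. In basal cells 6 of the 10 genes, and in suprabasal cells 2 of 10, had intervals that lay within 2 times in either direction. For the other genes the interval did not exclude a difference of 2 times. Uhrf1, which brings Dnmt1 to newly copied DNA, had 42.8 and 54.6 FPKM in basal cells and 18.9 and 24.0 in suprabasal cells, and was not called. The de novo methyltransferase Dnmt3a had 19.3 and 14.1 FPKM in basal cells and 16.6 and 9.88 in suprabasal cells, and was not called either.

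Whether a gene's genotype difference itself differed between layers was tested with a Wald z statistic (two-sided), the basal log2 fold change being subtracted from the suprabasal one. None of the 10 genes passed after Benjamini-Hochberg adjustment over 10583 loci, and none had an unadjusted p under 0.05, where 4 loci (0.0378%) and 3.08% of loci did. The largest difference in size was that of Cbx3 (-0.43 ± 0.77) and the smallest that of Dnmt1 (0.01 ± 0.43). For Cbx1 it was -0.28, with a 95% interval from -1.25 to 0.69, and for Suz12 0.35, from -0.67 to 1.36. Of the 10 genes 9 had the same sign in both layers, 6 below and 3 above 0, where 60.5% of all loci had the same sign. Of all loci, 60.3% were below 0 in basal and 56.6% in suprabasal cells. All 3 wild type sample titles and 1 of the 2 bitransgenic ones have the same stem in both layers, so layers may share animals, and the test treats them as independent.

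Most of these transcripts stood higher in basal than in suprabasal cells, in both genotypes. In wild type 8 of 10 were higher in basal cells, against 52.8% of all loci, and 5 of 10 by over 1.5 times, against 17% of all loci. In bitransgenic cells 9 of 10 were higher, against 51.6%, and 5 by over 1.5 times, against 20.4%. In bulk samples, fewer cells of a type and less RNA per cell cannot be told apart. Cbx5 led the order, with a basal level 2.46 times the suprabasal level in wild type, and 2.32 times that of the other layer in bitransgenic samples. Suz12 followed with 1.95 and 1.53 times, Trim28 with 1.73 and 1.94, Ezh2 with 1.52 and 1.56, and Suv39h1 with 1.51 and 1.20. Dnmt1 had 1.43 and 1.42, Cbx1 1.26 and 1.53, and Ehmt2 1.11 and 1.15. Eed stood lower in basal cells in both genotypes, at 0.947 and 0.898, and Cbx3 was at 0.887 in wild type and 1.20 in bitransgenic cells.

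Genes of proliferation separated the layers too. All 22 proliferation markers were higher in basal cells in both genotypes, by a median of 1.997 times (wild type) and 2.06 times (bitransgenic), against medians of 1.47 and 1.48 for the 10 genes. Mki67, a marker of cycling cells, stood at 78.2 and 93.8 FPKM in wild type and bitransgenic basal cells and at 25.7 and 31.5 in suprabasal cells. In the comparison of genotypes, Top2a, a topoisomerase of dividing cells, rose in basal cells (83.2 to 196 FPKM, 1.23 ± 0.30, authors' q 0.00858 in their deposited table), the 1 called of 22 there. E2f1, a transcription factor of the cell cycle in a line merged with Necab3, was the other marker with an unadjusted p under 0.05 in basal cells (11.4 and 6.07 FPKM, -0.91 ± 0.36, p 0.0112 in the authors' deposited table), and it was lower and not called. Pcna had 85.1 and 97.2 FPKM in basal cells and 57.4 and 51.0 in suprabasal cells. Mcm2 had 28.4 and 27.6 in basal cells and 20.1 and 21.7 in suprabasal cells. Cdk1 had 90.7 and 64.7 in basal cells and 36.7 and 59.6 in suprabasal cells. None of Pcna, Mcm2 and Cdk1 was called, and no proliferation marker was called in suprabasal cells, where 1 of 22 had an unadjusted p under 0.05. The part of the share of dividing cells, and of the melanocyte transcripts in the suprabasal groups, in the layer levels of the 10 genes was not tested.

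**Figure D3:**
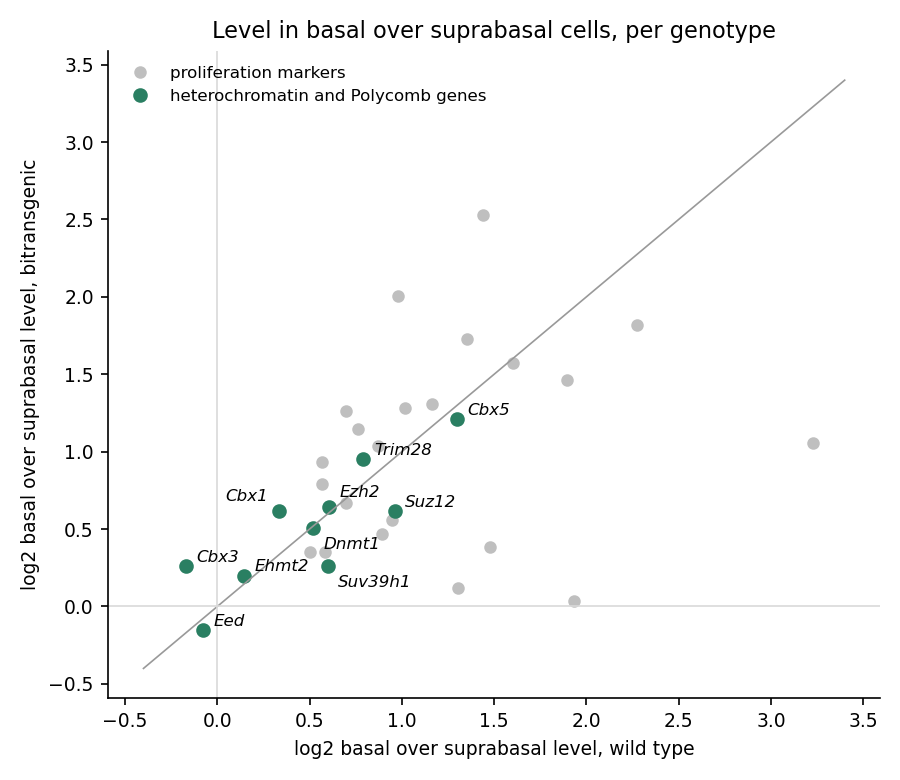
Log2 of the basal over the suprabasal level in wild type (horizontal axis) and bitransgenic cells (vertical axis), green for the 10 genes and grey for 22 proliferation markers; the diagonal marks equal ratios. Cbx5 lies farthest from 0 among the 10 genes, at 1.30 and 1.21, and Eed lies below 0 on both axes.

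The promoters of the 5 genes whose wild type level was over 1.5 times higher in basal cells are shown because these genes share that layer pattern. The windows run from 250 bases before to 50 after a transcript start and come from RefSeq (GRCm38.p6, the assembly of mm10). They were searched on both strands for 4 strings of letters of the kind bound by E2F factors, which drive genes of DNA replication. Of all windows in the table, TTCCCGC was found in 4.60%, while TTGGCGC was found in 2.45%. The string TTCGCGC was found in 1.59% of them, and the string TTGCCGC in 1.81%. Matches on either strand are in capitals, and no match overlapped another.
Suz12, chr11:79992856-79993155, plus strand: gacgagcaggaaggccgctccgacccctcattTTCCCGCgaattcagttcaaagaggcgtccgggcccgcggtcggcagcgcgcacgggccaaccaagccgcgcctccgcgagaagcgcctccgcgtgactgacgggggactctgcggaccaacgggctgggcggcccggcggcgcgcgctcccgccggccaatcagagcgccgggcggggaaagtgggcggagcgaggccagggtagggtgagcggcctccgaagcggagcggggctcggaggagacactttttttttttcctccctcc
Trim28, chr7:13023902-13024201, plus strand: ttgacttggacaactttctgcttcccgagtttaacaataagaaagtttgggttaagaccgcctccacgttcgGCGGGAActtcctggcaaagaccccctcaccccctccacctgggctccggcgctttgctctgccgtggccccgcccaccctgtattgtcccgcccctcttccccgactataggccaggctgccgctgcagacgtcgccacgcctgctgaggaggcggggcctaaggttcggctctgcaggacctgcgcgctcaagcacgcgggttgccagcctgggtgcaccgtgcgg
Ezh2, chr6:47594981-47595280, minus strand: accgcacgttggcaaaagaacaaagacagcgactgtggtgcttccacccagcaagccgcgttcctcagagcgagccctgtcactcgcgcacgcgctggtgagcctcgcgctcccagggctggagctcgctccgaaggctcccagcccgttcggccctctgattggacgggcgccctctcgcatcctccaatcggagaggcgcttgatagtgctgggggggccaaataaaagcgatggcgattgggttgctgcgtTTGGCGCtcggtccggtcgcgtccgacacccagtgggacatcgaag
Suv39h1, chrX:8074312-8074611, minus strand: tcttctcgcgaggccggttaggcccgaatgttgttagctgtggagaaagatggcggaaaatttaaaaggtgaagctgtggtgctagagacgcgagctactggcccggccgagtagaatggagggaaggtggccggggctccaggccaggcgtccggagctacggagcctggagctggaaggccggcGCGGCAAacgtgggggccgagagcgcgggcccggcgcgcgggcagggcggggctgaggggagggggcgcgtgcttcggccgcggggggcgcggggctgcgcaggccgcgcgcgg
Cbx5, chr15:103239803-103240102, minus strand: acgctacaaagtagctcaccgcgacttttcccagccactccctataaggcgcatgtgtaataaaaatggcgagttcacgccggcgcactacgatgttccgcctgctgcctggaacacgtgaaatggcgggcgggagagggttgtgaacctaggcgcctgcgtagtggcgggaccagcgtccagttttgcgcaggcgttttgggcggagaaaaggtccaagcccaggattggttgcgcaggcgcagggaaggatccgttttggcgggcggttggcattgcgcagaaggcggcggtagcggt

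In Ezh2 the match began at position 4 after the start, in Suv39h1 at -64, in Trim28 at -178 and in Suz12 at -218, counted from the start at 0. The Cbx5 window above held none, nor did the other Cbx5 window or the window of the outer Suv39h1 start. All 10 genes were found in the promoter table, with 16 windows, and 7 windows from 7 genes (Cbx1, Cbx3, Dnmt1, Ezh2, Suv39h1, Suz12 and Trim28) held a match. Of all 32851 windows 9.57% held one. The strings contain CG, and the members' windows are rich in it, with a median of 28.5 CG dinucleotides against 7 over all windows. Among the 8701 windows with at least 20 CG, 22.5% held a match, and 7 of 11 such windows of the members did. A match describes the letters of the window and not the binding of a factor.

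Beyond the 10 genes, 97 chromatin genes were listed, these 10 included, and 93 of them were found in each table, on 95 loci. In basal cells 1 of the 95 fell and none rose, against 1.39% and 0.257% of all loci that were lower and higher, and in suprabasal cells none was called, against 0.419% and 0.0523%. Cbx8, the gene of a PRC1 protein that reads the H3K27 mark, was the one that fell, from 7.65 to 1.44 FPKM in basal cells (-2.41 ± 0.66, q 0.0295 in the authors' deposited table). It lies on chromosome 11 from 119036305 to 119040969. In suprabasal cells Cbx8 had 4.37 and 1.87 FPKM (-1.23 ± 0.71), which missed the threshold, and the difference between the layers was 1.18 ± 0.97, with an adjusted p of 1 in the Wald test. The basal call ended after subtracting the median fold change of expressed loci (Benjamini-Hochberg adjusted p 0.0889). The list's median log2 fold change was -0.11 in basal and -0.07 in suprabasal cells, close to the medians over all loci of -0.12 and -0.08.

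Cbx2 and Cbx6, the genes of other PRC1 Cbx proteins, had levels below wild type in basal cells without passing the test. Near Cbx8 on chromosome 11, Cbx2 (119022962 to 119031366) had 3.45 and 2.39 FPKM in basal cells (-0.53 ± 0.43). In suprabasal cells Cbx2 had 4.18 and 3.50 FPKM. Cbx6, in a line merged with Nptxr, had 16.2 and 9.77 FPKM in basal cells (-0.73 ± 0.30, p 0.0153 and q 0.158 in the authors' deposited table), and 16.1 and 10.7 in suprabasal cells. Among the other PRC1 subunits, the ubiquitin ligase gene Rnf2 had 16.2 and 20.7 FPKM in basal cells and 15.5 and 18.1 in suprabasal cells. Bmi1, its activating partner, had 31.9 and 17.5 in basal cells (-0.86 ± 0.56) and 13.2 and 11.5 in suprabasal cells. Neither was called.

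**Figure D4:**
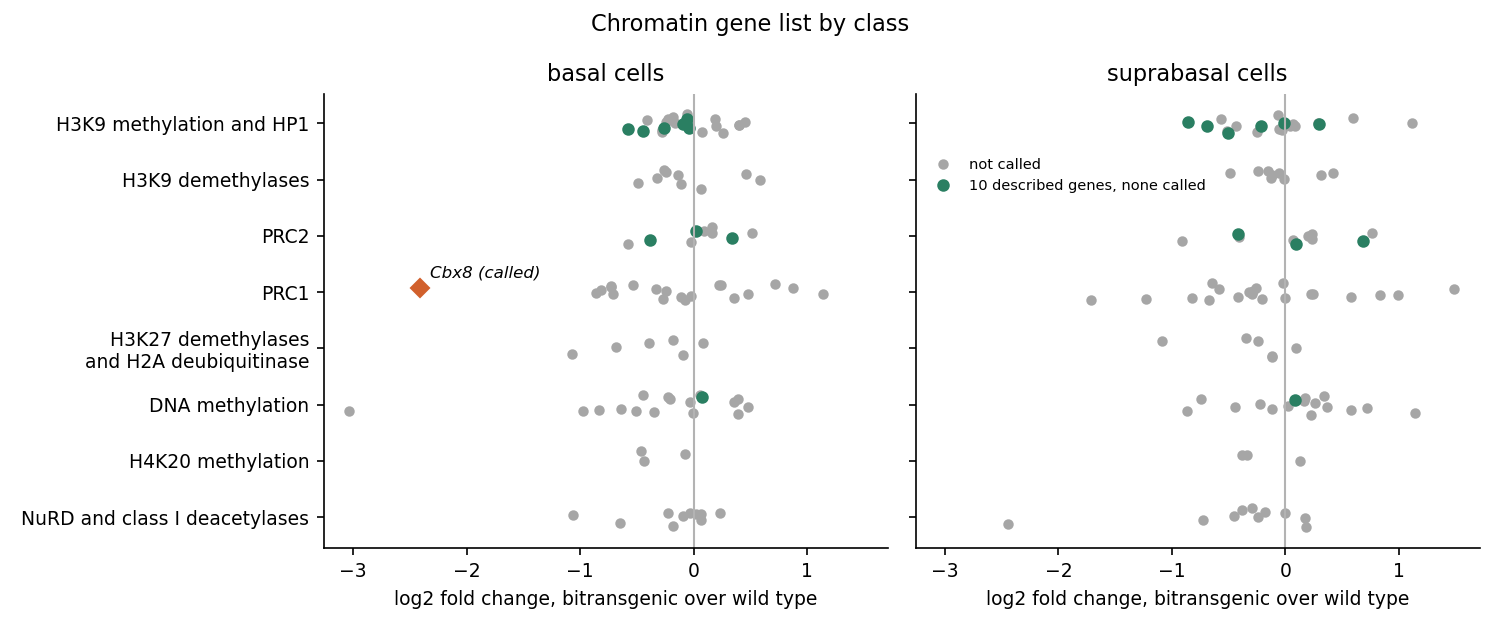
Log2 fold change, bitransgenic over wild type, of each locus in the chromatin list by class, in basal cells on the left and suprabasal cells on the right; green points are the 10 genes described above, grey points other loci, the orange diamond a called locus, and the vertical spread within a class has no meaning. Cbx8 at -2.41 in basal cells is the 1 called locus, and most others lie within 1 of 0.

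By class, the 9 PRC2 loci of basal cells had a median of 0.09, with 6 above 0, and the 10 of suprabasal cells a median of 0.15, with 7 above. Ezh1, the second PRC2 enzyme, had 10.3 and 6.86 FPKM in basal cells and 8.97 and 10.3 in suprabasal cells. The Ezh2 level was 3.18 times that of Ezh1 in wild type basal cells, 3.65 in bitransgenic basal, 2.39 in wild type suprabasal and 1.55 in bitransgenic suprabasal cells. Ezh1 was not called. The H3K27 demethylase gene Kdm6a, on the X chromosome, had 24.4 and 21.5 FPKM in basal and 17.6 and 16.2 in suprabasal cells, with the same mixing of the sexes as above. Among the 9 H3K9 demethylase loci the medians were -0.14 and -0.12, and among 10 loci of NuRD, a deacetylase and remodelling complex, and class I deacetylases -0.06 and -0.27. H4K20 methylation had 3 loci, with medians of -0.44 and -0.34. No locus of these classes was called in either layer. For the remaining classes the basal and suprabasal medians were -0.09 and -0.03 (H3K9 methylation and HP1) and -0.18 and -0.27 (PRC1, the class of Cbx8). They were -0.29 and -0.18 for H3K27 demethylases and H2A deubiquitinase, and -0.21 and 0.17 for DNA methylation.

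Among single-gene lines with at least 5 FPKM in the higher group, the lowest basal estimates were those of Cbx8, one of the Kdm6b lines (6.15 and 2.94 FPKM, -1.07 ± 3.14), Hdac1 (6.36 and 3.05 FPKM, -1.06 ± 0.76) and Zbtb4, which encodes a methyl-CpG-binding protein (8.39 and 4.26 FPKM, -0.98 ± 0.34, q 0.0545 in the authors' deposited table). The highest were those of Pcgf6 (2.48 and 5.46 FPKM, 1.14 ± 0.79), Scmh1 (0.87 ± 0.54), Yaf2 (0.71 ± 0.54) and Kdm1a (0.59 ± 0.72). Only Cbx8 of these 8 was called. Kdm6b has a second line with the same coordinates, at 23.8 and 22.4 FPKM in basal cells. In suprabasal cells the lowest were Chd3 (2034 and 374 FPKM, -2.44 ± 2.57), Pcgf1 (8.58 and 2.62 FPKM, -1.71 ± 0.84), one of the Kdm6b lines (5.97 and 2.81 FPKM, -1.09 ± 2.36) and Zbtb4 (7.35 and 4.03 FPKM, -0.87 ± 0.38). The highest were Phc1 (3.69 and 10.3 FPKM, 1.49 ± 0.67), a second Mbd1 line (1.14 ± 2.51), Mphosph8 (7.44 and 16.2 FPKM, 1.12 ± 0.78) and Scmh1 (8.88 and 17.6 FPKM, 0.99 ± 0.49). None of these 8 was called. The Chd3 locus holds an annotated small Cajal body RNA gene (Gm22442), so its level is uncertain. Tet1, which oxidises methylated cytosine and was named after its values were seen, had a lower basal estimate at 3.11 and 0.380 FPKM (-3.03 ± 1.14, q 0.0948 in the authors' deposited table). At an unadjusted p under 0.05 there were 5 of the 95 loci in each layer, where 7.68% of all basal and 7.11% of all suprabasal loci had such a p. All 5 were lower in basal cells, where 701 of the 867 such loci were lower, and 3 were lower and 2 higher in suprabasal cells, where 592 of 815 were lower.

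Of 9 genes listed as Polycomb targets of epidermis, 3 were measured in basal cells and 4 in suprabasal cells. Lor, the cornified envelope protein loricrin, fell in basal cells from 17.2 to 3.18 FPKM (-2.44 ± 0.67, q 0.0347 in the authors' deposited table). That call ended after readjustment over the analysed loci (Benjamini-Hochberg adjusted p 0.0513), and also after centring (0.0958). Flg, which encodes filaggrin, had 106 and 53.0 FPKM in basal cells, and Ivl, another envelope gene, 4.14 and 9.29, and neither was called. All 3 had an unadjusted p under 0.05 in basal cells, where 7.68% of all loci did and 1.65% of all loci were called. Of the 3, 2 were lower and 1 higher in bitransgenic samples. Lor, Flg and Ivl are also among the 8 suprabasal keratinocyte markers. In suprabasal cells Lor had 27.6 and 29.6 FPKM, Flg 243 and 281, and Ivl 18.4 and 24.0. Cdkn2b, an inhibitor of the cell cycle that Polycomb complexes repress, was measured only in suprabasal cells, at 4.18 and 0.829 FPKM (-2.34 ± 1.29). No gene of this list was called in suprabasal cells, and none had an unadjusted p under 0.05 there. The difference between the layers for Lor was 2.53 ± 0.78, with an adjusted p of 0.487 in the Wald test.

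The pattern of each gene over the 4 groups was compared with those of 7123 other single-gene loci with at least 5 FPKM in every group (7124 for Cbx3), as the distance between log2 levels after each gene's mean was removed. The nearest to Cbx5 was Cdca3, a cell cycle gene, at a distance of 0.03, and 30 loci lay within 0.25. Suz12 had Tubb6 as its nearest (0.04) and 20 loci within 0.25, the fewest of the 10 genes. Cbx1 had Eif1 (0.09), Trim28 had Gabpb1 (0.03) and Ezh2 had 1110012L19Rik (0.05). For Eed, whose levels lay close together in all groups, the nearest was Ddx3x (0.01), and 736 loci lay within 0.25. The remaining nearest genes were Fbxl19 for Cbx3, Gm12928 for Suv39h1, Sowahc for Ehmt2 and Nfat5 for Dnmt1. Among the 10 genes themselves the nearest pair was Suv39h1 and Dnmt1 (0.19), then Cbx3 and Ehmt2 (0.23). With 4 values a gene, such likeness is a description.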

How the data were processed

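RNA from 10 samples of sorted keratinocytes was sequenced. Per the labels' protocols, strand-specific libraries were made from purified RNA with a NuGen Ovation kit. TopHat, Cufflinks and the mm10 build are named in the submitters' processing notes. For each layer the authors deposited 1 table in the form Cuffdiff writes. Its levels, 1 deposited value for each group, were taken to be FPKM because of that form and the tools named, and how libraries were scaled is not given in the sources used here. The log2 fold changes, the test statistic (a score), and the p-value and q-value per locus are the authors' deposited values. The 26 loci of each table without status OK were left out. Starts are printed 1-based.

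Here, log2 fold changes were recomputed from the levels (largest difference from the deposited ones 4.13e-05), and the SE was taken as the absolute log2 fold change over the normal quantile of the authors' p. The layer test was run on simulated fold changes, drawn independently for each layer from normal distributions with the SEs that the test uses. Such data cannot show how the test behaves where layers share animals. Python 3.11.15, numpy 2.4.6, pandas 2.3.3 and scipy 1.17.1 were used. The 10 genes and the gene lists were chosen with earlier results of these data known. Genes named from the chromatin list were every called one and, per layer, the 4 highest and 4 lowest fold changes on single-gene lines with at least 5 FPKM in the higher group; further genes were named as paralogs or partners of the 10 or after their values were seen. Since nothing says that samples came from separate animals, p-values may measure technical spread. Protein sequences were not used here.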

Additional observations from a re-analysis of the deposited data

How the results depend on the processing

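The count of called genes among the 10 stayed at 0 in basal and in suprabasal cells under Benjamini-Hochberg readjustment over status OK loci, centring on the median of expressed loci, a minimum of 5 FPKM, and single-symbol loci. In the layer difference it stayed at 0 under centring, the minimum of 5 FPKM, and an SE from the test statistic. Over all loci the basal count was 186 at the authors' q, 63 after readjustment, 41 after centring and 75 with the minimum of 5 FPKM. The number of called chromatin loci in basal cells was 1, and 0 after centring. The members' median log2 fold change lay between -0.07 and 0.04 in basal cells, above 0 after centring, and between -0.11 and -0.03 in suprabasal cells, over pseudocounts of 1 and 5 FPKM and centring. The 8 members higher in basal cells in wild type, and the 9 in bitransgenic cells, became 5 and 5 when a difference of over 1.5 times was required, and scaling the layers to a median ratio of 1 left 8 and 9. The cause of these differences was not tested. No paired analysis was possible because the tables hold 1 value per group, and replicates could not be left out for the same reason. The unknown depth limits what can be said of Cbx3 and Cbx8, which have low levels.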

Other observations

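Among the chromatin genes outside the 10, the layers were set side by side as a description across separately normalized tables. Of 83 loci, 55 were higher in basal cells in wild type (66.3%, against 52.8% of all loci) and 47 in bitransgenic cells (56.6%, against 51.6%). Over 1.5 times higher in basal cells in both genotypes were 7 loci: Bmi1, Rybp, Mtf2, Morc2a, Chaf1a, Uhrf1 and Hells, where 8.60% of all loci were. Jarid2, Scmh1, Kdm4b and the merged line of Zbtb38 were over 1.5 times higher in suprabasal cells in both genotypes, where 9.35% of all loci were. Jarid2, which brings PRC2 to its sites, had 26.9 and 30.04 FPKM in wild type and bitransgenic basal cells and 58.6 and 68.8 in suprabasal cells. Jarid2 thus stood the other way round from Suz12 and Ezh2. Eed was also lower in basal cells, at 0.947 of its suprabasal level in wild type and 0.898 in bitransgenic cells. Hells, a remodeller needed for DNA methylation, had 44.5 and 58.5 FPKM in basal cells and 21.0 and 23.7 in suprabasal cells. These loci were chosen after their values were seen.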
